A study of Drosophila melanogaster with 36 samples.

Results

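The genes described here encode proteins of the mitochondrial ribosome of *Drosophila melanogaster*. They are all rows of the deposited count table whose symbol starts with mRpL (large subunit) or mRpS (small subunit), 73 of the 17562 genes in the table. By symbol, 47 are named for the large and 26 for the small subunit, and counts by subunit follow the symbol throughout. Of these 73 genes, 72 had enough counts to be tested in every comparison, and mRpL53 had no count in any library. RNA was sequenced from brains of female flies in which a GAL4 driver line switched on GFP in one glial type. At each age the brains were dissociated with actinomycin D, and each pool of brains gave a library of sorted live GFP+ cells and an unsorted library of the same suspension, which is called whole brain throughout. The 6 sorted groups were GMR56F03 at day 70 and day 5, GMR10E12 at day 70 and day 5 (both lines drive expression mainly in ensheathing glia) and GMR86E01 (astrocyte-like glia) at day 70 and day 5. The 6 whole brain groups came from the same lines and ages, and all 12 groups had 3 replicates, which makes 36 libraries. All flies carried a GAL4 driver and a GFP reporter, the drivers decide which cells were sorted, and each replicate is a pool of brains and not a single fly.

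The mitochondrial ribosome sits in the mitochondrial matrix and translates the few mRNAs of the mitochondrial genome, which in the fly encode 13 proteins, all of them subunits of the respiratory chain and the ATP synthase. Its ribosomal RNAs come from the mitochondrial genome, whereas all of its proteins are encoded in the nucleus, made in the cytosol and imported. The small subunit binds the mRNA and decodes it, and the large subunit joins the amino acids and releases the new chain through its exit tunnel toward the inner membrane.

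Total counts per library ranged from 912285 to 17060052, and the 73 genes held between 0.119% and 0.262% of them. Levels are given as CPM, counts relative to the size of the library, with sizes scaled by TMM, a method that sets the scale so that most genes do not differ. The floor, the level that 3 counts give, was 0.171 to 3.83 CPM and covers counting error only, since reads copied by PCR are not independent molecules. The shallowest library, whole brain GMR10E12 day 70 replicate 1, had no count for 10 of the 73 genes, and 34 of the 36 libraries had counts for all of the 72 genes that were tested. Correlations of log2 levels between replicates of a group were 0.816 to 0.986. Markers of the targeted glia were higher in sorted cells than in whole brain: the glial gene repo was higher by 2.38 (GMR56F03), 1.93 (GMR10E12) and 3.01 (GMR86E01) on the log2 scale. The ensheathing markers egr, sgl and drpr separated the 2 sorted glial types poorly, with 1 of 3 passing as higher in ensheathing glia, whereas all 5 astrocyte markers were lower there. The sorted ensheathing libraries still held astrocyte marker mRNA, with a summed level of 4683 to 15617 CPM against 9284 to 44844 CPM in sorted astrocyte-like glia.

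The members lie on every large chromosome arm (12 on 2L, 12 on 2R, 17 on 3L, 21 on 3R and 11 on X), so they are not a cluster. Their exons are short, 327 to 2078 bases with a median of 783. Of the 73, 43 share some exon bases with a neighbouring gene, mostly one on the opposite strand, and 2 share more than 50%. One is mRpS24, whose exons overlap TBC1d7 over 55.3% of their length. The other is mRpL53 (2R, positions 13954195 to 13955664, + strand, dm6), whose 829 exon bases all lie within exons of AGO1 on the opposite strand or CG33155 on the same strand. The authors' counting in union mode leaves out reads that touch exons of more than 1 gene, and whether this set the 0 of mRpL53 was not tested. Its 0 counts say only that its level as counted was under the floor of each library.

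Levels per length were similar across most of the genes, with a single one standing far above the rest. Over all 36 libraries, 63 of the 72 detected genes had between 15 and 60 CPM per kb of exon, with a median of 24.6 (24.4 in the large and 25.2 in the small subunit). mRpS5, the counterpart of bacterial ribosomal protein S5, had the highest level at 131 ± 39.7 CPM per kb (SD, n = 36), followed by mRpL33 at 75.6 ± 24.7 and mRpL55 at 54.9 ± 19.4. These neighbours in the order lie within about 1 SD of each other, except that mRpS5 and mRpL33 are separated by more. mRpS5 alone made up 4.83% to 20.2% of the summed level of the family in a library, and at least 8.37% without the shallowest library. The lowest levels above 0 were those of mRpS18B (11.1 ± 3.94 CPM per kb) and mRpS24 (7.84 ± 3.07 CPM per kb). The exon length used for mRpS24 includes the 55.3% that overlaps TBC1d7, where reads may be left out. Whether this set its low place was not tested. The genes also differed in how steady they were over the 36 libraries: the SD of log2(CPM + 1) was 0.29 for mRpL30, 0.30 for mRpS31 and 0.32 for mRpL42, against 0.92 for mRpL41, 0.91 for mRpL44 and 0.83 for mRpL27. Each of the last 3 had a count of 0 in a single library, the shallowest one for mRpL41 and mRpL27 and sorted GMR86E01 day 5 replicate 1 for mRpL44, and without that library their SD was 0.61, 0.65 and 0.37 in the order mRpL41, mRpL44 and mRpL27. With libraries at 0 left out for each gene, the largest SD was 0.79 for mRpS10 (0.60 without the shallowest library), followed by 0.75 for mRpS18A, and the smallest was 0.27 for mRpS29, genes named here after their values were seen.

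**Figure D1:**
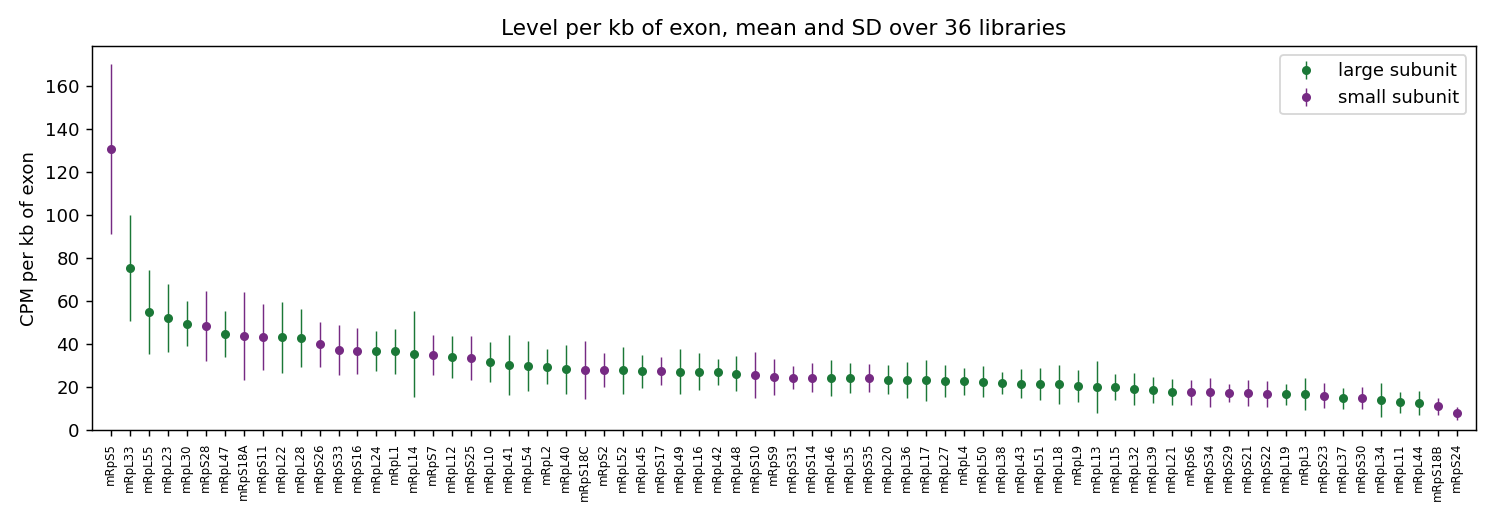
Level of the 72 detected mitochondrial ribosomal protein genes in CPM per kb of exon, mean (points) and SD (bars) over 36 libraries, ordered by level. mRpS5 stands at 131 CPM per kb, and most genes lie between 15 and 60 CPM per kb.

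The summed level of the family was lower in old than in young whole brain of each line. In GMR56F03 brains it was 1594 ± 47.1 CPM at day 70 and 2214 ± 38.9 CPM at day 5 (SD, n = 3 each). In GMR86E01 brains it was 1683 ± 31.7 CPM at day 70 and 2249 ± 159 CPM at day 5. In GMR10E12 brains it was 1854 ± 227 CPM at day 70 and 2272 ± 132 CPM at day 5. On this scale every day 70 brain library lay below every day 5 brain library of the same line. As a share of all counts, without TMM, this held in GMR56F03 brains (0.168% to 0.181% at day 70, 0.204% to 0.215% at day 5), while the ages overlapped in GMR86E01 brains (0.183% to 0.205% at day 70, 0.203% to 0.262% at day 5) and in GMR10E12 brains (0.154% to 0.202% at day 70, 0.190% to 0.252% at day 5). In sorted cells the ages separated in GMR56F03 only, with 1452 ± 61.5 CPM at day 70 and 1870 ± 147 CPM at day 5. They overlapped in GMR10E12 (1825 ± 12.4 CPM at day 70, 1861 ± 150 CPM at day 5) and in GMR86E01 (1527 ± 43.9 CPM at day 70, 1586 ± 85.6 CPM at day 5). The share of all counts held by the family was 0.154% to 0.161% at day 70 and 0.119% to 0.129% at day 5 in sorted GMR86E01 cells. In a sample of many cell types, fewer cells of a type and less RNA per cell cannot be told apart.

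**Figure D2:**
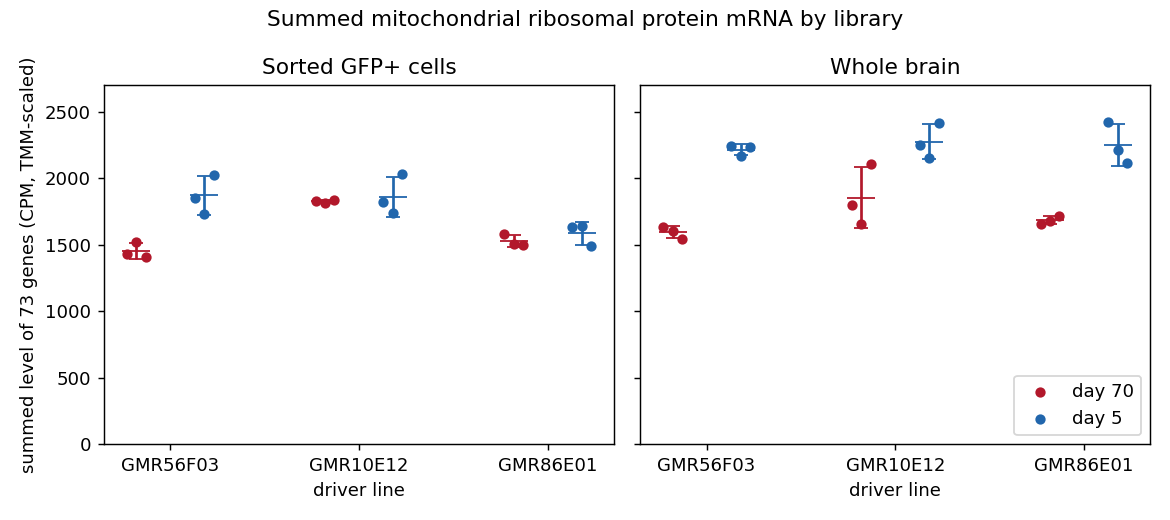
Summed level of the 73 genes (CPM, TMM-scaled, y axis from 0) in each of the 36 libraries, by driver line, with day 70 left of day 5; bars give the mean and SD of 3 replicates. On this scale the ages do not overlap in whole brain of any line or in sorted GMR56F03 cells.

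The first comparison asks which mitochondrial ribosomal protein genes differ with age in whole brain, with all 18 brain libraries in 1 fit and the driver line as a covariate. Of the 72 genes tested, 26 fell and none rose at day 70, against 10.4% of all 9650 genes tested that fell and 11.0% that rose (21.4% in all, adjusted p below 0.05, edgeR's quasi-likelihood test). The median log2 fold change of the 72 was -0.41, with 70 below 0, and that of all genes tested was 0.02. Genes named for either subunit took part: by symbol, 16 of 46 large subunit and 10 of 26 small subunit genes fell, with medians of -0.41 and -0.43. The 7 genes whose 9 old and 9 young libraries did not overlap were all lower at day 70, where 2.65% of all genes were separated in this direction and 1.72% in the other.

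mRpL10, which in bacteria has a counterpart at the base of the flexible stalk where translation factors dock, had the smallest adjusted p. Its lowest, median and highest levels were 14.5, 20.5 and 25.9 CPM in the 9 day 70 brains, against 28.7, 34.5 and 36.4 CPM in the 9 day 5 brains. The ages did not overlap, and the log2 fold change was -0.71 (SE 0.10, adjusted p = 9.8e-05). Standard errors here are the size of the fold change over the square root of the F statistic and add nothing to the test. The gene lies on 2L at positions 203779 to 204782 (+ strand, dm6), with 2 exon blocks.

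mRpL37, a large subunit protein with no bacterial counterpart (3R, positions 10782563 to 10784092, - strand), had 12.8, 19.1 and 21.8 CPM (lowest, median, highest) at day 70, against 24.4, 26.7 and 38.4 CPM at day 5. All old brains were again below all young ones, by -0.64 on the log2 scale (SE 0.12, adjusted p = 8.3e-04). mRpS5 (3L, positions 24537236 to 24543534, + strand) had 86.9, 182 and 265 CPM at day 70, against 274, 295 and 330 CPM at day 5. Its ages did not overlap, and the log2 fold change was -0.72 (SE 0.13, adjusted p = 8.4e-04). The lowest of these values, 86.9 CPM, came from the shallowest library. mRpS11, the counterpart of a bacterial protein of the small subunit platform (3R, positions 17072732 to 17073795, + strand), had 20.6, 25.5 and 29.4 CPM at day 70, against 30.3, 33.6 and 41.2 CPM at day 5. It also separated the ages, with a log2 fold change of -0.50 (SE 0.09, adjusted p = 0.00107).

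**Figure D3:**
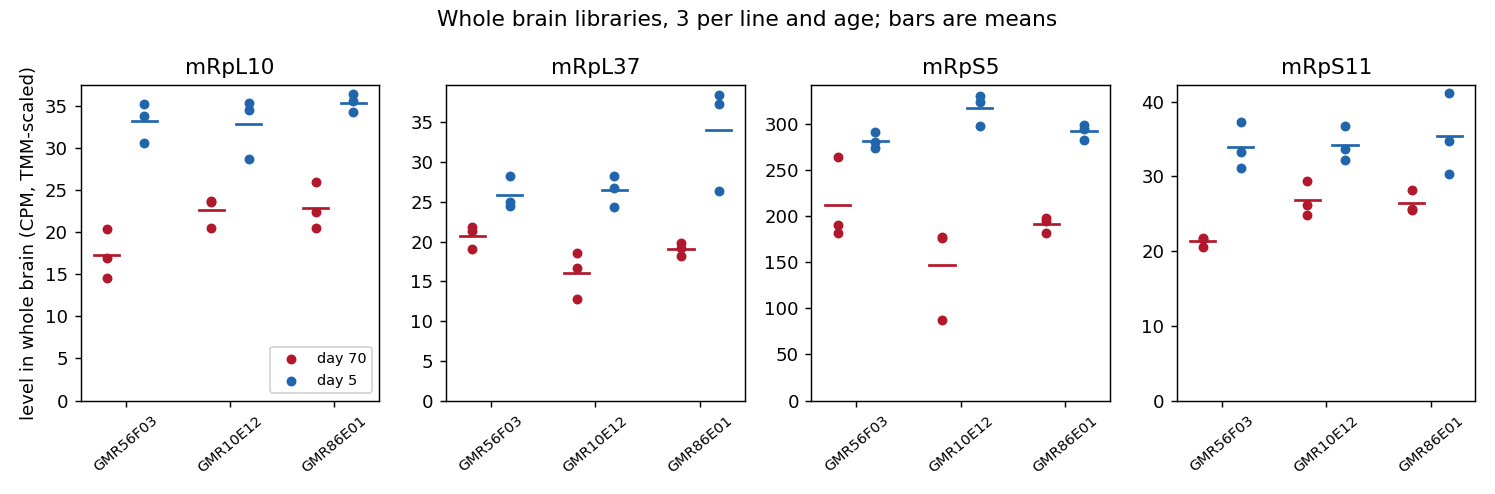
Level (CPM, TMM-scaled, y axes from 0) of mRpL10, mRpL37, mRpS5 and mRpS11 in the 18 whole brain libraries, by driver line, with day 70 left of day 5; each point is a library and bars are means of 3. For each gene all 9 day 70 brains lie below all 9 day 5 brains.

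The fifth gene by adjusted p, mRpL51 of the large subunit, averaged 9.64 ± 2.57 CPM at day 70 and 17.7 ± 3.74 CPM at day 5 (SD, n = 9 each), a log2 fold change of -0.89 (SE 0.17, adjusted p = 0.00137). The last gene to pass was mRpS18A (log2 fold change -0.37, SE 0.13, adjusted p = 0.0489) and the first that did not was mRpL47 (-0.29, SE 0.10, adjusted p = 0.0524), so the list ends at about the size of the median gene. The only positive values were 0.10 for mRpL14 and 0.10 for mRpL3 (adjusted p = 0.822 and 0.79), and both turned negative, to -0.18 and -0.10, without the shallowest library, where the only positive value was 0.01 for mRpS18B. Without the shallowest library, GMR10E12 day 70 replicate 1, 47 of 72 genes fell, among them all 26. In that fit 28.3% of all genes were called in either direction, so the share that fell was at most this value. With total counts as the scale the median of all genes moved to 0.17 and 10 members fell. The distance between the median of the members and that of all genes was -0.43 on both scales. DESeq2 called 37 members lower. The share of all genes called is not printed here for the total count scale or DESeq2, so these counts stand without a background.

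Each line was then taken alone. In GMR56F03 brains 18 of 72 genes fell and none rose, against 6.75% of all genes that fell and 5.78% that rose, and the median log2 fold change was -0.49, with 71 below 0. The 3 old brains lay below the 3 young ones in 52 genes, where 18.6% of all genes did so. mRpS28, a small subunit protein, led with 26.7, 22.6 and 26.7 CPM at day 70 against 46.7, 42.0 and 44.5 CPM at day 5. No day 70 brain came near a day 5 brain, and the log2 fold change was -0.77 (SE 0.13, adjusted p = 0.00641). mRpL10 had 20.3, 14.5 and 16.9 CPM at day 70 against 35.3, 33.8 and 30.6 CPM at day 5, again without overlap (log2 fold change -0.89, SE 0.17, adjusted p = 0.01). mRpL23, a protein of the exit tunnel rim in bacteria, fell by 0.71 on the log2 scale, and mRpL55 and mRpL16 by 0.77 and 0.81. Leaving out any single library of this line lowered the number of calls. It was 2, 5 and 3 without day 5 replicate 1, 2 or 3, and 8, 13 and 9 without day 70 replicate 1, 2 or 3. It was 4 on the total count scale and 1 in a fit over all 36 libraries.

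In GMR86E01 brains all 72 genes had a log2 fold change below 0, with a median of -0.42, and 4 of them fell, against 3.82% of all genes that fell and 2.31% that rose (6.13% in all). The ages did not overlap in 42 genes, all lower at day 70, where 14.8% of all genes were separated in this direction. mRpS5 had 181, 195 and 198 CPM at day 70 against 299, 283 and 295 CPM at day 5. The replicates of each age were within a narrow band, and the log2 fold change was -0.63 (SE 0.08, adjusted p = 0.00707). mRpL37 had 18.2, 19.9 and 19.2 CPM at day 70 against 38.4, 26.4 and 37.3 CPM at day 5, with young brain replicate 2 the lowest of the young ones (log2 fold change -0.86, SE 0.18, adjusted p = 0.0301). The others were mRpL41 (-0.94, SE 0.21, adjusted p = 0.0417) and mRpL10 (-0.64, SE 0.15, adjusted p = 0.0468). Any 1 of the 6 libraries left out brought the count to 1 or 2, whereas DESeq2 called 9, and the total count scale and the fit over all 36 libraries called 0.

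In GMR10E12 brains no member passed edgeR's test (1 had an unadjusted p below 0.05, and DESeq2 called 1 lower), in a comparison where 3 of 8378 genes passed (0.0358%) and 0.00% were called lower. The median log2 fold change was -0.26, with 52 of 72 below 0, and the ages were separated in 15 genes, lower at day 70 in each, against 13.2% of all genes. mRpS5 had 86.9, 177 and 176 CPM at day 70 against 298, 324 and 330 CPM at day 5. Its ages were far apart, but old replicate 1, the shallowest library, stood apart from the other old brains, and the adjusted p was 0.273 (log2 fold change -1.09, SE 0.27). The 3 brain lines share no libraries, and 52 members were below 0 in all 3 and none above 0 in all 3, against 27.8% and 25.5% of the 8202 genes tested in all lines. Only mRpL10 was called lower in both GMR56F03 and GMR86E01 brains, which is 5.56% of the calls in GMR56F03 and 25% of those in GMR86E01. How many of all genes were called lower in both lines was not counted, so this overlap has no background.

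Cell type markers differed with age in the same brains. All 5 astrocyte markers (alrm, Eaat1, Gat, Gs2 and AANAT1) fell in the pooled whole brain fit, with summed levels of 1666 to 3499 CPM at day 70 and 2350 to 9633 CPM at day 5, and none of them was at 0. Of the 11 neuronal markers 2 rose and 5 fell, with summed levels of 6896 to 8574 CPM at day 70 and 7487 to 9118 CPM at day 5. The 3 yolk protein genes Yp1, Yp2 and Yp3, markers of fat body, rose, with 196 to 7774 CPM at day 70 and 77.3 to 421 CPM at day 5. The part of these markers' cells in the lower levels of mitochondrial ribosomal protein mRNA was not tested.

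**Figure D4:**
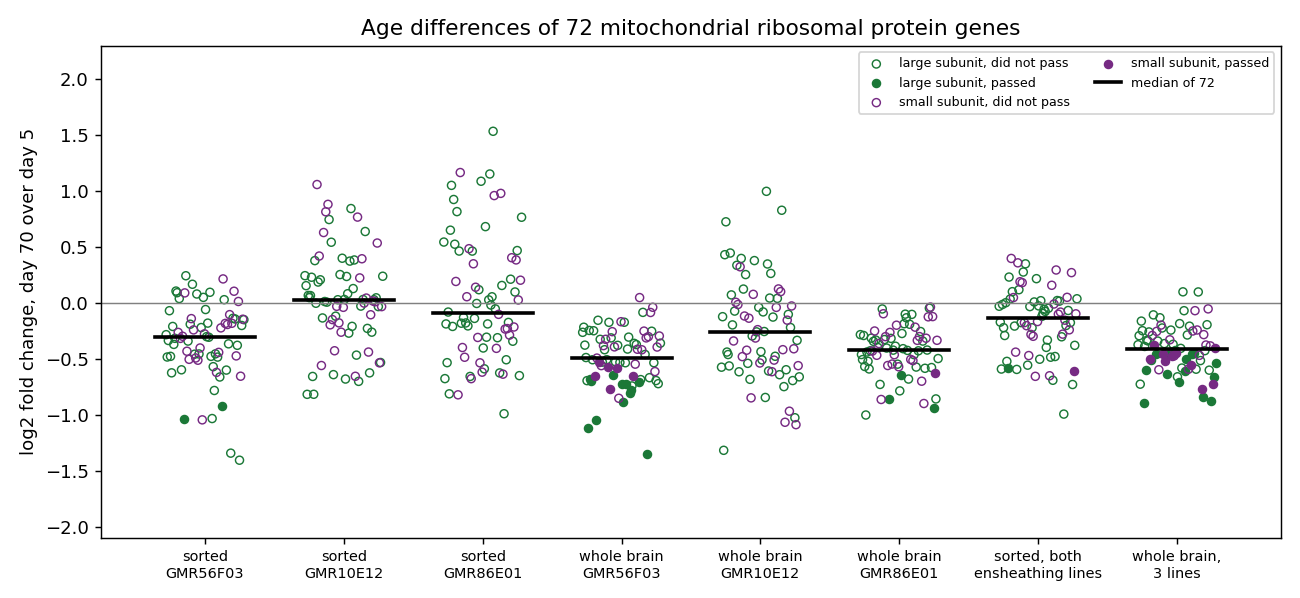
Log2 fold change, day 70 over day 5, of the 72 tested genes in each sorted and whole brain line and in the fits that combine lines. Each point is a gene, filled where it passed an adjusted p of 0.05 in edgeR's test, and black lines are medians, which run from -0.49 in GMR56F03 brains to 0.02 in sorted GMR10E12 cells.

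The sorted cells of each line were compared between the ages in the same way. In sorted GMR56F03 ensheathing glia 2 of 72 genes fell and none rose, against 5.60% of all genes that fell and 9.43% that rose, and the median log2 fold change was -0.30, with 59 below 0, when that of all genes was 0.03. Old cells lay below young cells in 19 genes, against 15.5% of all genes. mRpL23 (3L, positions 2372844 to 2373704, - strand) had 17.0, 21.3 and 25.2 CPM at day 70 against 48.5, 33.8 and 39.9 CPM at day 5, and mRpL24 (2L, positions 4944256 to 4945361, - strand), the counterpart of a bacterial protein near the tunnel exit, had 13.5, 27.5 and 23.7 CPM at day 70 against 54.8, 33.8 and 46.2 CPM at day 5. Neither gene's ages overlapped. Their log2 fold changes were -0.92 (SE 0.25, adjusted p = 0.0351) and -1.04 (SE 0.30, adjusted p = 0.0459). Leaving out any 1 of the 6 libraries left 0 or 1 call, and DESeq2 called 4. All 5 astrocyte markers fell in these cells too, with summed levels of 7790 to 7900 CPM at day 70 and 13521 to 15617 CPM at day 5, and repo fell, with 196 to 221 CPM at day 70 and 315 to 456 CPM at day 5. Sums of 2 cortex glia markers (both fell) were 377 to 416 CPM at day 70 and 594 to 666 CPM at day 5, those of 4 surface glia markers (2 rose) 369 to 380 CPM at day 70 and 246 to 262 CPM at day 5, and those of neuronal markers (1 rose and 2 fell of 11) 2477 to 2551 CPM at day 70 and 2951 to 3928 CPM at day 5. Sums of the photoreceptor markers ninaE, ninaC and trp were 958 to 1987 CPM at day 70 and 179 to 606 CPM at day 5. The part of all these markers' cells in the values of mRpL23 and mRpL24 was not tested.

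In sorted GMR10E12 ensheathing glia no member passed edgeR's test (5 had an unadjusted p below 0.05, and DESeq2 called 1 higher), against 5.19% of all genes that rose and 4.39% that fell (9.58% in all). The median log2 fold change was 0.02, with 40 genes above 0 and 32 below, and -0.03 with total counts as the scale. Old and young cells did not overlap in 8 genes that were higher and 4 that were lower at day 70, against 15.5% and 15.8% of all genes. mRpS11, one of the genes that fell in whole brain, had 54.8, 57.2 and 69.7 CPM at day 70 against 31.2, 18.5 and 36.7 CPM at day 5. All 3 old samples were higher, with a log2 fold change of 1.06 (SE 0.29, adjusted p = 0.0504). The yolk protein genes rose in these cells, to summed levels of 147 to 9362 CPM at day 70 against 39.7 to 59.0 CPM at day 5. The astrocyte markers fell (5 of 5), with 4683 to 6339 CPM at day 70 and 10601 to 14272 CPM at day 5. The sums of other lists also separated the ages. Neuronal markers (2 of 11 fell) had 1736 to 2491 CPM at day 70 and 2914 to 3516 CPM at day 5, hemocyte markers (1 of 4 rose) 1685 to 2213 CPM at day 70 and 479 to 1462 CPM at day 5, surface glia markers (1 of 4 rose) 673 to 930 CPM at day 70 and 454 to 527 CPM at day 5, and cortex glia markers (0 of 2 passed) 236 to 434 CPM at day 70 and 567 to 654 CPM at day 5. Photoreceptor markers had 4848 to 7430 CPM at day 70 and 2781 to 4460 CPM at day 5. Ensheathing markers had 544 to 703 CPM at day 70 and 502 to 517 CPM at day 5. The level of repo was 168 to 193 CPM at day 70 and 272 to 356 CPM at day 5. The part of these mRNAs was not tested.

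With both ensheathing lines in 1 fit, 2 of 72 genes fell and none rose, against 8.82% of all genes that fell and 9.41% that rose, with a median log2 fold change of -0.14. mRpS5 had 142, 161 and 151 CPM at day 70 against 251, 290 and 178 CPM at day 5 in GMR56F03 cells, and 191, 180 and 231 CPM at day 70 against 263, 351 and 262 CPM at day 5 in GMR10E12 cells. Within each line the ages were separated, while old GMR10E12 cells and young GMR56F03 replicate 3 overlapped. Its log2 fold change was -0.60 (SE 0.14, adjusted p = 0.00807). mRpL17 (3L, positions 264779 to 265932, + strand), a large subunit protein, had 18.4, 20.5 and 22.6 CPM at day 70 against 25.7, 23.8 and 27.7 CPM at day 5 in GMR56F03 cells, and 14.9, 15.5 and 20.1 CPM at day 70 against 26.6, 26.2 and 36.1 CPM at day 5 in GMR10E12 cells. It was the only gene whose 6 old and 6 young samples did not overlap, where 3.69% of all genes were separated in this direction (log2 fold change -0.58, SE 0.19, adjusted p = 0.0456). Only 1 gene passed without any single GMR10E12 library, GMR56F03 day 70 replicate 1 or 2 or GMR56F03 day 5 replicate 3, and the fit over all 36 libraries called 6.

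In sorted GMR86E01 astrocyte-like glia no member passed (0 had an unadjusted p below 0.05, DESeq2 called 0, and the fit over all 36 libraries called 4 higher), against 2.80% of all genes that rose and 3.65% that fell (6.44% in all). The median log2 fold change was -0.09, when that of all genes was 0.11, and with total counts as the scale the members' median changed sign to 0.29 when that of all genes was 0.49. The ages did not overlap in 8 genes that were higher and 6 that were lower at day 70, against 16.6% and 13.5% of all genes. The ages of these cells differed widely in their markers. All 5 astrocyte markers fell, with summed levels of 9284 to 15096 CPM at day 70 and 42721 to 44844 CPM at day 5. Of 11 neuronal markers 5 rose, with 2243 to 3265 CPM at day 70 and 934 to 1676 CPM at day 5, and of 4 hemocyte markers 2 fell, with 542 to 801 CPM at day 70 and 3009 to 3852 CPM at day 5. The level of repo was 176 to 264 CPM at day 70 and 563 to 613 CPM at day 5. Ensheathing markers had 384 to 450 CPM at day 70 and 579 to 644 CPM at day 5. Cortex glia markers had 229 to 328 CPM at day 70 and 350 to 421 CPM at day 5. Yolk protein genes had 72.4 to 111 CPM at day 70 and 203 to 220 CPM at day 5. Sums of surface glia and of photoreceptor markers overlapped. None of these genes was at 0 in either age, and their part in the values of the ribosomal protein genes was not tested. Over the 3 sorted lines 18 members were below 0 and 7 above 0 in all of them, against 16.6% and 22.1% of the 8134 genes tested in all lines.

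Whether the age difference was unlike in sorted cells and whole brain of the same line was tested as an interaction. No member passed edgeR's test in any of the 3 lines, against 1.18% (GMR56F03), 0.184% (GMR10E12) and 2.97% (GMR86E01) of all genes with a more positive age difference in sorted cells. An unadjusted p below 0.05 was found in 5, 2 and 12 members in this order of lines, and DESeq2 called 0, 1 and 3 higher. The difference in log2 fold change, sorted minus whole brain, had a median of 0.15 in GMR56F03 (49 of 72 positive), 0.27 in GMR10E12 (50 positive) and 0.37 in GMR86E01 (55 positive), with medians over all genes of 0.03, -0.06 and 0.12. The smallest p belonged to mRpS18A in GMR86E01 (difference 1.60, SE 0.43, adjusted p = 0.0598) and to mRpS11 in GMR10E12 (difference 1.40, SE 0.42, adjusted p = 0.184). In edgeR's main fits a difference in the age effect between sorted cells and brain was therefore not shown for any single gene. The fit over all 36 libraries called 1 member higher in GMR10E12 and 3 in GMR86E01, as many as DESeq2. A p above the threshold does not show that the effects were alike.

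Sorted cells were also compared with whole brain of the same line, averaged over both ages. The main fits did not use the pairing of sorted and brain libraries from the same brains. In GMR56F03, 10 of 72 genes were lower and 1 was higher in sorted ensheathing glia, against 23.1% lower and 26.4% higher of all genes, with a median log2 difference of -0.20. mRpL33 (X, positions 4321764 to 4322231, - strand), a large subunit protein with a bacterial counterpart, had a lowest, median and highest level of 13.3, 17.0 and 19.4 CPM in 6 sorted samples against 21.2, 26.4 and 36.0 CPM in 6 brains. These did not overlap, and its log2 difference was -0.66 (SE 0.13, adjusted p = 9.6e-04). It was the only member so separated, where 13.0% of all genes were lower without overlap. mRpL52 had 5.09, 9.08 and 15.5 CPM in sorted samples against 11.6, 16.8 and 18.1 CPM in brains (log2 difference -0.80, SE 0.19, adjusted p = 0.00273). mRpL13, mRpL55 and mRpL39 were also lower (-0.67, -0.61 and -0.45), and mRpL49 was higher (0.55, SE 0.17, adjusted p = 0.0144). Without brain day 70 replicate 2 the lower calls were 6, and without sorted day 5 replicate 1 the higher calls were 4. The fit over all 36 libraries called 4 lower and 0 higher.

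In GMR10E12, 5 genes were lower and 2 higher in sorted ensheathing glia, against 20.1% lower and 21.6% higher of all genes, with a median log2 difference of -0.22. mRpS18A had 9.98, 14.8 and 30.0 CPM (lowest, median, highest) in sorted samples against 29.9, 39.1 and 48.6 CPM in brains. The highest sorted sample just reached the lowest brain, and the log2 difference was -1.30 (SE 0.28, adjusted p = 0.0016). mRpL21 (3L, positions 19253290 to 19255061, - strand) had 4.87, 19.2 and 24.4 CPM in sorted samples against 28.1, 37.5 and 45.6 CPM in brains, which did not overlap (-1.09, SE 0.29, adjusted p = 0.00803). With mRpL38 it was 1 of 2 members so separated, where 10.5% of all genes were lower without overlap. mRpS18C, mRpL33 and mRpL38 were lower by -1.04, -0.64 and -0.67, while mRpS9, the counterpart of bacterial S9, and mRpL45, which in mammals helps to dock the ribosome at the inner membrane, were higher by 0.76 (adjusted p = 0.0129) and 0.62 (adjusted p = 0.0488). Sorted and brain libraries came from the same brains, and equal replicate numbers were taken to mark a pool, which the labels do not state. With the replicate number as a block 2 genes were lower and 1 higher, while the fit over all 36 libraries called 13 lower and 3 higher. The calls also depended on single libraries: 2, 3 and 2 genes were lower without brain day 5 replicate 1, 2 or 3, 2 and 3 without sorted day 5 replicate 2 or 3, and 8 without brain day 70 replicate 2. Only 1 gene was higher without any single one of these 4 brain libraries, sorted day 5 replicate 1, or sorted day 70 replicate 2 or 3.

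In GMR86E01, 17 genes were lower and 2 higher in sorted astrocyte-like glia, against 23.8% lower and 24.9% higher of all genes, with a median log2 difference of -0.34 when that of all genes was -0.06. mRpS18A (3R, positions 8561917 to 8562593, - strand) had 6.66, 9.36 and 18.0 CPM in sorted samples against 21.8, 31.5 and 46.2 CPM in brains. These did not overlap, and the log2 difference was the most negative in the family at -1.60 (SE 0.22, adjusted p = 6.2e-05). mRpS5 had 140, 152 and 192 CPM in sorted samples against 181, 241 and 299 CPM in brains (-0.57, SE 0.10, adjusted p = 6.9e-04). It was followed by mRpL55 (-0.80), mRpL39 (-0.75) and mRpS10 (-1.02). mRpS28 and mRpL28 were higher by 0.68 (SE 0.18, adjusted p = 0.00807) and 0.55 (SE 0.16, adjusted p = 0.0147), though not with total counts as the scale, where the median of all genes was -0.34 and 36 members were lower and 0 higher. Of the members, 6 were lower in sorted cells without overlap, where 15.1% of all genes were. Without brain day 5 replicate 1 the lower calls were 11. No gene was called lower in all 3 lines. Of the genes lower in a pair of lines, 6 were shared by GMR56F03 and GMR86E01 (60% and 35.3% of their calls), 3 by GMR56F03 and GMR10E12 (30% and 60%), and 1, mRpS18A, by GMR10E12 and GMR86E01 (20% and 5.88%). The sharing among all genes called lower was not counted, so it is not known whether the members agreed more or less than genes in general. All 11 neuronal markers were lower and all 4 hemocyte markers (Hml, NimC1, He and srp) were higher in sorted cells than in brain of every line, with hemocyte sums of 433 to 3852 CPM in sorted and 14.9 to 215 CPM in brain libraries. Of the hemocyte markers 1 was at 0 in all GMR56F03 day 70 brains, and their part in these differences was not tested.

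mRpS18A, mRpS18B and mRpS18C descend from the gene of 1 bacterial protein, S18. In mammals only the counterpart of mRpS18C takes the place of S18, that of mRpS18B sits elsewhere in the small subunit, and that of mRpS18A is built into the large subunit, whatever its name says. mRpS18A had the median levels 16.3 and 16.1 CPM in sorted cells at day 70 and day 5, against 28.2 and 38.0 CPM in brains at day 70 and day 5. The sorted lines differed beneath these medians: mRpS18A had 11.4 to 18.0 CPM at day 70 and 6.66 to 7.36 CPM at day 5 in GMR86E01 cells, without overlap, 13.3 to 26.5 CPM at day 70 and 16.1 to 30.1 CPM at day 5 in GMR56F03 cells, and 9.98 to 16.3 CPM at day 70 and 11.8 to 30.0 CPM at day 5 in GMR10E12 cells, and passed in none. Its age difference in ensheathing minus astrocyte-like glia was -1.56 (SE 0.51, adjusted p = 0.0566). mRpS18B, the lowest of the 3, had 9.71 and 7.50 CPM in sorted cells at day 70 and day 5, against 9.33 and 10.9 CPM in brains at day 70 and day 5, and passed no test, with a log2 difference between sorted cells and brain of -0.18, -0.20 and -0.56 in GMR56F03, GMR10E12 and GMR86E01 (adjusted p = 0.522, 0.745 and 0.185). mRpS18C had 9.98 and 10.4 CPM in sorted cells at day 70 and day 5, against 14.6 and 20.1 CPM in brains at day 70 and day 5. Its log2 difference between sorted cells and brain was -0.57, -1.04 and -0.61 in GMR56F03, GMR10E12 and GMR86E01, of which the second passed (adjusted p = 0.113, 0.0291 and 0.166), and the lines were not tested against each other. These symbols are taken from the files, and none of the 3 shares more than 11.0% of its exon bases with another gene.

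Between the sorted glial types, 3 of 72 genes were higher and 1 was lower in ensheathing than in astrocyte-like glia, averaged over ages, against 6.77% higher and 5.24% lower of all genes, and all 4 are named as small subunit genes. Astrocyte-like glia came from GMR86E01 only and ensheathing glia from the other lines, so glial type and driver line cannot be told apart. The ranges and SDs below pool lines and ages. The median log2 difference was 0.18, with 55 above 0, when that of all genes was 0.02. mRpS28 (2R, positions 18614210 to 18615018, - strand) had 19.3, 24.5 and 42.8 CPM (lowest, median, highest) in 12 ensheathing samples against 27.4, 43.2 and 70.9 CPM in 6 astrocyte samples. The ranges overlapped, and the log2 difference was -0.75 (SE 0.19, adjusted p = 0.0138). mRpS5 had 142, 211 and 351 CPM in ensheathing samples against 140, 152 and 192 CPM in astrocyte samples, with overlap at the low end (0.45, SE 0.12, adjusted p = 0.0204). mRpS29, known in mammals as the GTP-binding protein DAP3, averaged 27.5 ± 3.68 CPM in ensheathing and 19.2 ± 3.65 CPM in astrocyte samples (0.53, SE 0.16, adjusted p = 0.0447), and mRpS18A 19.3 ± 7.35 CPM and 11.4 ± 5.33 CPM (0.84, SE 0.26, adjusted p = 0.0458; SD, n = 12 and 6). The glial marker repo was lower in ensheathing glia (-0.51), summed neuronal markers were 1736 to 3928 CPM in ensheathing and 934 to 3265 CPM in astrocyte samples, and the part of these cells was not tested. The higher calls numbered 0 or 1 without sorted GMR86E01 day 5 replicate 2 or day 70 replicate 1, 2 or 3, GMR10E12 day 5 replicate 2 or 3 or day 70 replicate 2, or GMR56F03 day 5 replicate 1 or 3 or day 70 replicate 2, and without GMR86E01 day 5 replicate 2 the lower call was 0. The age difference in ensheathing minus that in astrocyte-like glia passed for no member in edgeR's test (10 had an unadjusted p below 0.05, and DESeq2 called 2 lower), against 5.46% higher and 6.41% lower of all genes, with a median of -0.08.

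Genes that act with the mitochondrial ribosome were compared with it in the same fits. In the pooled whole brain fit, 4 of 9 mitochondrial translation factors fell and none rose, with a list median of -0.36: the elongation factors mEFTu1 (-0.75, SE 0.11, adjusted p = 1.8e-04), which brings tRNAs to the ribosome, mEFTs (-0.56, adjusted p = 8.9e-04), its exchange factor, and mEFG1 (-0.41, adjusted p = 0.0322), which moves the ribosome along, and the initiation factor mIF3 (-0.95, adjusted p = 0.0207). Of 15 mitochondrial tRNA synthetases 2 fell, not far from the 10.4% of all genes that did: PheRS-m (-0.55, adjusted p = 0.0263) and TrpRS-m (-0.46, adjusted p = 0.0152). The list had a median of -0.33, and none of its genes fell with total counts as the scale, where 2 of the translation factors fell. The genes tko and bonsai, for small subunit proteins whose symbols do not follow the mRp scheme, had values of -0.24 and -0.10 and did not pass (adjusted p = 0.117 and 0.794). Of 10 tested genes that transcribe or maintain the mitochondrial genome none fell and 1 rose, and TFAM, which packages mitochondrial DNA, had a value of 0.14 (adjusted p = 0.58).

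The products that the mitochondrial ribosome makes are assembled with nuclear-encoded partners. In the pooled whole brain fit, 10.4% of all genes fell and 11.0% rose. Of 65 tested nuclear genes of oxidative phosphorylation 50 fell and 3 rose in the pooled whole brain fit, with a median of -0.61, and of the 13 protein genes of the mitochondrial genome 5 fell and none rose, with a median of -0.10 that changed sign to 0.05 with total counts as the scale, where 4 fell. The 5 were mt:CoI (-0.72), mt:CoII (-0.66), mt:CoIII (-0.78), mt:Cyt-b (-1.02) and mt:ND5 (-0.56). Of 13 tested genes of mitochondrial protein import 6 fell, among them the receptors Tom20 (-0.58, adjusted p = 5.1e-04) and Tom70 (-0.57, adjusted p = 0.00277) and the pore Tom40 (-0.73, adjusted p = 0.00192). The cytosolic ribosomal protein genes had a positive median in the pooled fit, with 16 of 85 genes that rose, none that fell and a median of 0.31 (52 rose with total counts as the scale), though not in each line: the median was 0.97 in GMR10E12 brains, 0.14 in GMR86E01 brains and -0.08 in GMR56F03 brains, where 59 of 85 genes were below 0 and which turned to 0.13 with total counts as the scale. In GMR10E12 brains the summed level was 108202, 51811 and 93859 CPM at day 70 against 40623, 54275 and 36752 CPM at day 5, with old replicate 2 among the young values. Of the regulators, srl, the fly counterpart of PGC-1, rose by 0.85 (SE 0.14, adjusted p = 3.3e-04) and Myc by 1.53 (SE 0.16, adjusted p = 3.8e-06), while ewg, the counterpart of NRF-1, had a value of 0.20 (adjusted p = 0.17).

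By line, 59 of 63, 53 of 64 and 0 of 62 oxidative phosphorylation genes fell in GMR56F03, GMR86E01 and GMR10E12 brains (55, 21 and 0 with total counts as the scale), in fits where 6.75%, 3.82% and 0.00% of all genes fell. No gene at all was called lower in GMR10E12 brains, where the median of these genes was -0.26. In sorted cells 23 of 61 fell in GMR56F03, 2 of 63 in GMR10E12 and 0 of 64 in GMR86E01, where 5.60%, 4.39% and 3.65% of all genes fell. Cytosolic ribosomal protein genes rose in sorted ensheathing glia, with 53 of 84 genes in GMR56F03 and 66 of 84 in GMR10E12 and none that fell. In sorted GMR86E01 none of 85 rose and 2 fell, with a median of -0.24 that became 0.15 with total counts as the scale. Of all genes, 9.43%, 5.19% and 2.80% rose in sorted GMR56F03, GMR10E12 and GMR86E01. In sorted GMR86E01 cells 6 of the 13 mitochondrial genome genes fell with a list median of -0.80 (3 and -0.42 with total counts as the scale), where no mitochondrial ribosomal protein gene passed.

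**Figure D5:**
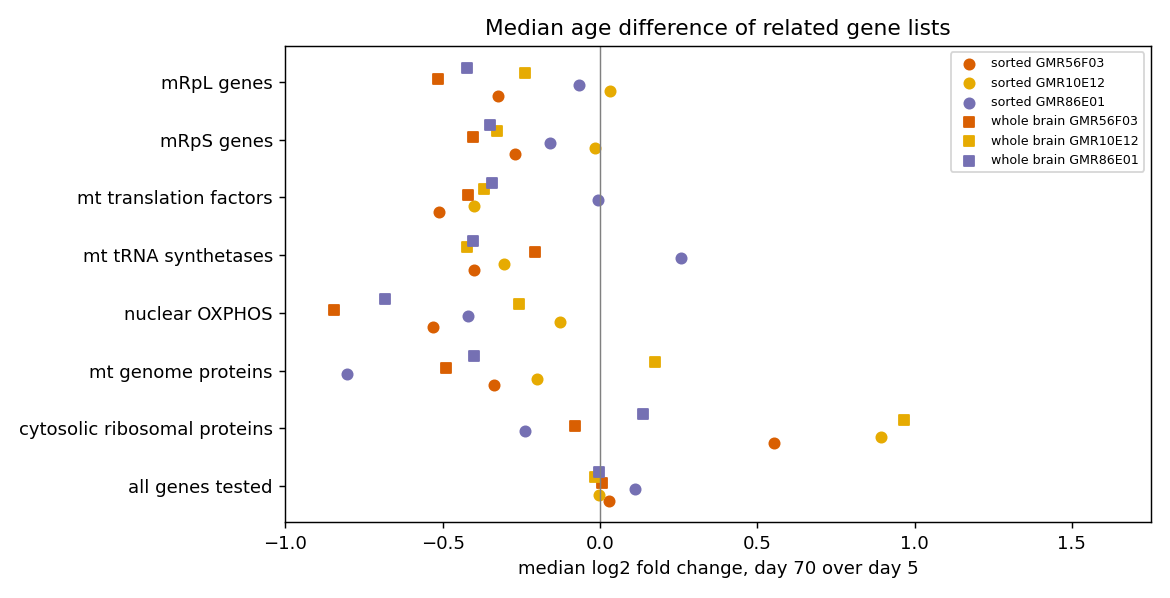
Median log2 fold change, day 70 over day 5, of the tested genes of each list in sorted cells (circles) and whole brain (squares) of the 3 driver lines, with all genes tested at the bottom. Medians of the mRpL and mRpS genes lie between -0.52 and 0.03, and those of cytosolic ribosomal proteins between -0.24 and 0.97.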

How the data were processed

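The deposited table holds raw counts, whole numbers of reads assigned to each gene by the authors, with no normalization: paired Smart-seq3 reads were aligned to dm6 with STAR 2.7.3a, unmapped and improperly paired reads were removed, and reads were counted on FlyBase exons with summarizeOverlaps in union mode. Whether UMIs were collapsed or strand was used is not given in the sources used here, so reads of overlapping genes may be lost or shared. Groups came from the labels, and all 36 libraries and columns were used. All 73 symbols matched the dm6 gene annotation, from which positions and exon lengths were taken.

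TMM-scaled CPM were computed with edgeR 4.0.16 (R 4.3.3), and each comparison was fitted on its own groups with the two-sided quasi-likelihood test (filterByExpr at a minimum count of 10, and the driver line as a term in fits that pool lines), with Benjamini-Hochberg adjustment over all genes tested and a threshold of 0.05. In comparisons of ages or of lines these p-values measure the spread between pools of brains. The main fits of sorted cells against brain, and of their age differences, treat libraries from the same brains as independent. Their p-values therefore do not measure that spread. Scripts were tested on simulated data. Alternatives were DESeq2 1.42.0, its size factors, total counts, no filter, a stricter filter of 10 counts per library, a block for the replicate number, a joint fit of all 36 libraries and each library left out. Other scales for the related lists, and the spread of levels without libraries at 0, were added after seeing the data. Figures were drawn with matplotlib 3.10.9.

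The members and all gene lists were chosen with earlier results of these data known. Named in the text are, per comparison, up to 5 members that passed in each direction by smallest adjusted p, the 3 highest and lowest per kb, the 3 most and least steady, the S18 paralogs, members without counts and those at the edge of the pooled whole brain list. Named outside this rule, after their values were seen, are mRpL3, mRpL14, mRpS11 in sorted cells, mRpS5 in GMR10E12 brains and the smallest interaction p-values. A planned count of promoter motifs was not run.

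The study took sorted and unsorted libraries from the same brains. Equal replicate numbers were taken to pair them, which the labels do not state. Deviations of same-numbered libraries from their groups correlated with an average r of 0.08 over 18 pairs (-0.00 to 0.24). Between ages and lines a number stands for different flies. For day 70 with day 5 of the same line and kind of library the average r was 0.02 over 18 pairs, and pairs between lines were not computed.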

Additional observations from a re-analysis of the deposited data

How the results depend on the processing

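No member named for passing a test changed direction under the alternatives, while mRpL14 and mRpL3, which did not pass, turned from 0.10 each in the pooled whole brain fit to -0.18 and -0.10 without GMR10E12 day 70 replicate 1. The median over the members changed sign with age in sorted GMR10E12 cells (0.02) and sorted GMR86E01 cells (-0.09) with total counts as the scale (-0.03 and 0.29) and with the replicate number as a block (-0.01 and 0.01). Without 1 library it ran from -0.07 to 0.12 in sorted GMR10E12 cells, and for the age difference in ensheathing minus astrocyte-like glia (-0.08) from -0.25 to 0.00, with no other sign change. For the genes named in a comparison, 240 of the repeats with another setting kept their call and 51 lost it, and 384 of the repeats without 1 library kept it and 108 lost it. The cause of the shifts listed here was not tested. Member counts under the alternatives, here and above, come without the share of all genes called in the same fit. The exception is the pooled brain fit without the shallowest library. These counts therefore do not show whether the members shifted more than genes in general. Small changes in weakly counted genes are limited by depth, with 3 counts worth up to 3.83 CPM, and 3 replicates a group limit the comparisons within a line.

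With DESeq2, calls of members changed by over 1.5 times to 4 lower in sorted GMR56F03 with age, 1 higher in sorted GMR10E12, 1 lower in GMR10E12 brain and 9 lower in GMR86E01 brain, and to 1 (GMR10E12) and 3 (GMR86E01) higher for sorted minus brain and 2 lower for ensheathing minus astrocyte-like glia. DESeq2's size factors in edgeR gave 1 higher with age in sorted GMR10E12 and 1 higher in sorted GMR10E12 over brain. With total counts as the scale the lower calls with age were 1 in sorted GMR56F03, 4, 0 and 10 in GMR56F03, GMR86E01 and all brains, and 1 in sorted ensheathing glia. On that scale sorted over brain gave 3 higher in GMR56F03, 1 higher in GMR10E12, and 0 higher and 36 lower in GMR86E01, ensheathing over astrocyte-like glia 5 higher and 0 lower, and the age differences 2 higher (GMR86E01) and 7 lower (ensheathing minus astrocyte-like).

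Without a filter the calls were 4 lower in sorted GMR56F03, 1 higher in sorted GMR10E12 and 1 lower in sorted ensheathing glia with age, 6 lower for sorted over brain in GMR56F03, 1 higher and 3 lower in GMR10E12, and 1 higher in ensheathing over astrocyte-like glia. With at least 10 counts in every library they were 4 lower, 1 higher and 1 lower in the same age comparisons, 4 higher for sorted over brain in GMR56F03, 3 lower in GMR10E12, and 1 higher (GMR86E01) and 1 lower (ensheathing minus astrocyte-like) for the age differences. The fit over all 36 libraries gave with age 1 higher in sorted GMR10E12, 4 higher in sorted GMR86E01, 6 lower in sorted ensheathing glia, and 1, 1, 0 and 13 lower in GMR56F03, GMR10E12, GMR86E01 and all brains. It gave for sorted over brain 0 higher and 4 lower in GMR56F03 and 13 lower in GMR10E12, and for the age differences 1 higher in GMR10E12, 3 higher in GMR86E01 and 4 lower for ensheathing minus astrocyte-like glia.

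With the replicate number as a block, sorted over brain in GMR10E12 had 1 higher and 2 lower. Other counts where the number was taken to mark the same brains stayed within 1.5 times. Between ages and lines the number only names a sample. There the block gave 0 lower in sorted GMR56F03, 9 in GMR56F03 brain, 1 in GMR86E01 brain and 1 in sorted ensheathing glia, and 1 higher in ensheathing over astrocyte-like glia.

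Leaving out each library in turn gave these ranges of calls. With age, 0 to 1 gene was lower in sorted GMR56F03, 1 to 3 in sorted ensheathing glia, 2 to 13 in GMR56F03 brain, 1 to 2 in GMR86E01 brain and 19 to 47 in all brains, the last with GMR10E12 day 70 replicate 1 left out. For sorted over brain, 1 to 4 were higher and 6 to 14 lower in GMR56F03, 1 to 3 higher and 2 to 8 lower in GMR10E12, and 2 to 3 higher and 11 to 21 lower in GMR86E01. For ensheathing over astrocyte-like glia 0 to 4 were higher and 0 to 1 lower. The age differences gave 0 to 3 higher in GMR86E01 (2 without sorted day 5 replicate 3, 3 without sorted day 70 replicate 3) and 0 to 2 lower for ensheathing minus astrocyte-like glia (2 without GMR86E01 day 5 replicate 2 or day 70 replicate 3), and all others 0.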
